A study of Mus musculus with 16 samples.

Results

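The subunits of the fast and slow receptors for glutamate, GABA and glycine were examined in the hippocampus of mice at 1 h after the onset of seizures, with and without inhibition of MEK. Members are the genes whose annotated symbol starts with Gria, Grid, Grm, Gabr, Gabbr or Glr followed by a family number or letter and number, and the NMDA subunits Grin1, Grin2a to Grin2d, Grin3a and Grin3b, without the kainate receptors. This rule found 27 of the 13180 genes that have a probe set of their own on the array, on 30 of 20372 probe sets. Grin3a and Gabrg1 are named only on probe sets shared with another gene and were not used. Gabrd and Glrb, whose letter is followed by no number, lie outside the rule and are given apart. The 16 mice were wildtype C57BL/6 males of 3 months, and each array holds RNA from 1 hippocampus of 1 mouse. Of them 4 were untreated (time label 0 h), and 3 each received vehicle, kainic acid at 20 mg/kg, SL327 at 50 mg/kg, or SL327 at 50 mg/kg followed after 1 h by kainic acid at 20 mg/kg, with a time label of 1 h. For the vehicle the labels give PBS and the methods a mixture of DMSO and PBS, which leaves its solvent uncertain. The 1 h label of SL327 alone is not certain either, since legends for tissue sections give a longer interval after that injection.

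Kainic acid activates kainate and AMPA receptors and drives recurrent excitation in the hippocampus, and SL327 blocks MEK, the kinase that activates ERK. AMPA receptors carry most of the fast excitatory current at hippocampal synapses, and NMDA receptors admit calcium when glutamate release coincides with depolarization. Metabotropic glutamate receptors act through G proteins, group I mainly after and groups II and III mainly before the synaptic cleft. GABA-A receptors are chloride channels built mostly from alpha, beta and gamma subunits, GABA-B receptors are dimers of Gabbr1 and Gabbr2 that act through G proteins, and glycine receptors are chloride channels best known from spinal cord and brain stem.

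Upstream sequences are shown for Gabra3, the member that passed the test, and for Gabrb2, which passed on 1 of its 2 probe sets. They are from RefSeq on GRCm38.p6, where 20 of the 27 members matched with 25 transcription starts, and each line gives the 250 bases before a start, on the strand of the gene, with the motif TATAAA of either strand in capitals.
Gabra3, chrX:72656920-72657169, minus strand: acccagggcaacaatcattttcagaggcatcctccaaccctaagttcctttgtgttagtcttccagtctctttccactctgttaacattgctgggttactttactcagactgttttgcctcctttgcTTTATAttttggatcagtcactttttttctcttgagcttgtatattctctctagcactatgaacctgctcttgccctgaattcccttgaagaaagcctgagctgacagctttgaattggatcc
Gabrb2, chr11:42420190-42420439, plus strand: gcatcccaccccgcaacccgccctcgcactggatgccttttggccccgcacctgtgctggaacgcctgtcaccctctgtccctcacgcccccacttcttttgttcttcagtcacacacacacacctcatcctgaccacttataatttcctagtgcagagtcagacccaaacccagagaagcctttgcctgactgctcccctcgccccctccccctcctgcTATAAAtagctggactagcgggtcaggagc
The letters TATAAA, searched on both strands, lay in 5 of the 25 member windows against 12.4% of 32851 windows of the same length. These 5 windows belong to 4 genes and hold 4 distinct matches, because both starts of Gabra3 have windows that overlap and share 1 match. Of the 3 starts of Gabrb2 the other 2 have windows without a match. In Gabrb2 they begin at -30 on the strand of the gene, and in Gabra3 at -123 on the opposite strand, which is -235 from its other start. The cyclic AMP response element TGACGTCA lay in 0 of the 25 windows (1.55% of all), and the AP-1 element TGANTCA in 1, that of Grin3b (6.75% of all). A match of letters is a description of the window and not of binding.

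Values are log2 intensities of a probe set as deposited, so a difference of 1 is a doubling, and levels of different genes are not compared as amounts of RNA. A summed linear level adds the unlogged intensities of a list's genes in 1 array, so the brightest probe sets weigh most in it. Seizure genes rose in the kainic acid arrays, with Arc at 9.93 ± 0.05 (SD, n = 3) in vehicle and 12.35 ± 0.06 (SD, n = 3) in kainic acid treated mice, and neuronal markers such as Camk2a and Snap25 lay above the array's median in all 16 arrays. The mean correlation of an array with its own group ran from r = 0.956 to 0.984 across probe sets, and the lowest was untreated replicate 2. This array also stood high for the receptor subunits, with a median over the 19 tested members of 0.19 above the vehicle mean against -0.01 to 0.05 in the other untreated mice. The deposited values of these 19 members ran above the median of the annotated probe sets in all 16 arrays, so none of them was tested only through a group in which it was high. The other 8 (Grid1, Grin3b, Grm3, Grm4, Grm6, Grm7, Gabrr2 and Glra2) were above it in 0 to 2 arrays and were not tested, and 0 of them passed in any of the 7 comparisons when the filter was dropped.

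Receptor subunits were compared between kainic acid and vehicle at 1 h after seizure onset. Of the 19 tested members 1 was higher and 0 were lower after kainic acid than after vehicle at limma's adjusted p of 0.05, while 19.6% of all 8520 tested probe sets passed. The member was Gabra3, a GABA-A alpha subunit. At an unadjusted p under 0.05 there were 4 members and 2862 probe sets. The change was below 0 for 15 members and above 0 for 4, with a median of -0.07 and a range of -0.33 to 0.40, and over all tested probe sets the median was -0.05 and 62.5% were below 0. Kainic acid and vehicle arrays had no overlap for 8 of the 19 members, against 40.8% of all tested probe sets. In bulk tissue, fewer cells of a type and less RNA per cell cannot be told apart. Markers of granule cells of the dentate gyrus moved in the same arrays: their median over 6 genes lay between -0.59 and -0.36 relative to the vehicle mean after kainic acid and between -0.15 and 0.09 after vehicle, their summed linear level was 2669 to 2984 against 3388 to 4167, and 3 of 5 tested were lower. These were Dsp, Lct and Prox1 (-0.92, -0.79 and -0.67), while Calb1 and C1ql2 changed by 0.001 and -0.16 without passing. The median of CA3 pyramidal cell markers (3 genes) ran from -0.23 to -0.10 after kainic acid and from -0.12 to 0.10 after vehicle. That of CA1 markers (3 genes) ran from 0.06 to 0.11 and from -0.08 to 0.06. The part of these markers in the changes of the receptor subunits was not tested.

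**Figure D1:**
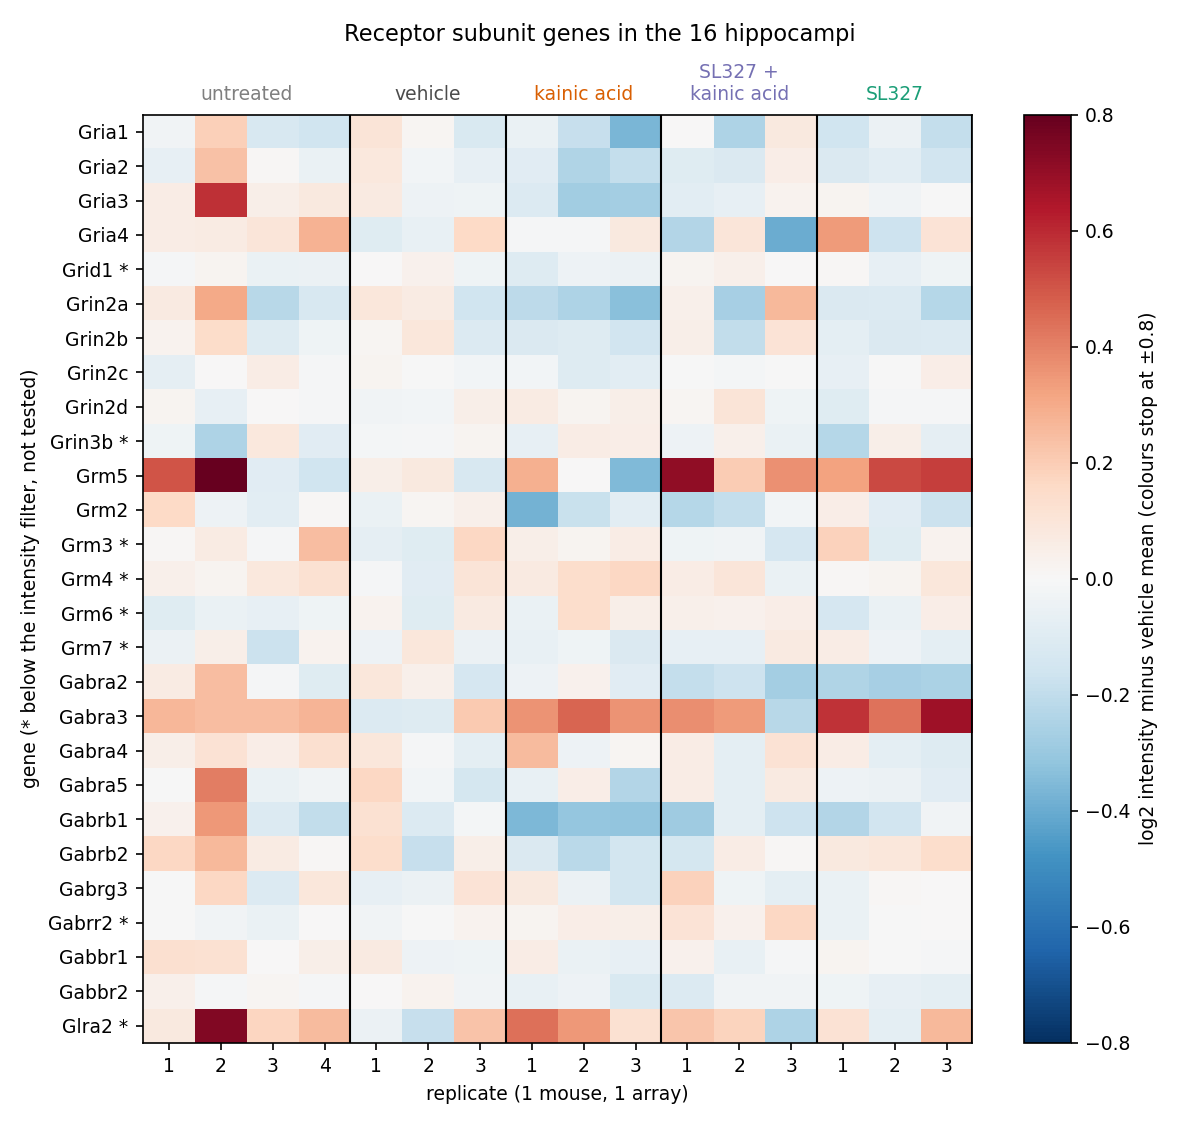
Log2 intensity of each of the 27 receptor subunit genes in each of the 16 arrays, as the difference from the mean of the 3 vehicle arrays (colour scale, stopped at 0.8 either way), with genes that were not tested marked by an asterisk. Most cells are pale, Gabra3 is above the vehicle mean in all untreated, kainic acid and SL327 arrays, and untreated replicate 2 is high for Gria3, Grm5, Gabra5 and Gabrb1.

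Among the GABA-A alpha subunits, Gabra3 was the member that passed. Gabra3 (probe set 7017520) encodes the alpha 3 subunit, which contributes to the benzodiazepine site of GABA-A receptors. It was at 10.20, 10.21 and 10.52 in the vehicle arrays and at 10.67, 10.77 and 10.67 in the kainic acid arrays. It was at 10.89, 10.74 and 10.99 after SL327 alone and at 10.68, 10.65 and 10.09 after SL327 with kainic acid. The untreated mice lay close together at 10.58, 10.56, 10.56 and 10.58, above all vehicle arrays and below all kainic acid arrays. Gabra3 was 1.32-fold higher after kainic acid than after vehicle (0.40 on the log2 scale, SE 0.13, 95% interval 0.12 to 0.67, limma's adjusted p = 0.0415) and the arrays did not overlap. With untreated mice as the control the change was 0.14 and did not pass (adjusted p = 0.403). Vehicle mice were lower than untreated mice by 0.26 without passing (adjusted p = 0.730). When each array was left out in turn the call for kainic acid held in 8 of 16 fits (0.34 to 0.50, adjusted p 0.00396 to 0.142), and it was lost without any 1 of the vehicle replicates 1 or 2, the kainic acid replicates 1, 2 or 3, the untreated replicates 1 or 4, or SL327 replicate 1.

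Both probe sets of Gabra3 were in the table. The other one, 7017519, is dim with a mean of 7.20 and was not tested. It was at 7.02, 7.26 and 6.90 after vehicle and at 7.42, 6.98 and 7.08 after kainic acid, so these groups overlapped. In the fit without the filter its change was 0.10 (95% interval -0.35 to 0.55), an interval that holds the 0.40 of 7017520. SL327 minus vehicle was 0.33 on 7017519 and 0.56 on 7017520, and vehicle minus untreated was -0.33 and -0.26. The combined treatment minus vehicle was -0.12 on 7017519 and 0.16 on 7017520. None of these values of 7017519 passed. Across the 16 arrays, which share groups and normalization, the probe sets correlated at r = 0.41. The interneuron marker Gad1, an enzyme that makes GABA, rose by 0.53 after kainic acid (adjusted p = 2.24e-04). No other tested interneuron marker passed. Gad2 and Erbb4 changed by -0.12 and -0.05, and Lhx6, Slc32a1, Pvalb, Sst and Npy by 0.02, 0.07, 0.14, 0.21 and 0.21. When SL327 was given too, Gad1 differed by -0.50 from kainic acid alone (adjusted p = 5.19e-04). Over 9 interneuron markers the median ran from 0.12 to 0.16 after kainic acid, against -0.07 to 0.04 after vehicle. The summed linear level of these markers, 5572 to 6309 against 5355 to 5981, overlapped, and its part in the result for Gabra3 was not tested.

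**Figure D2:**
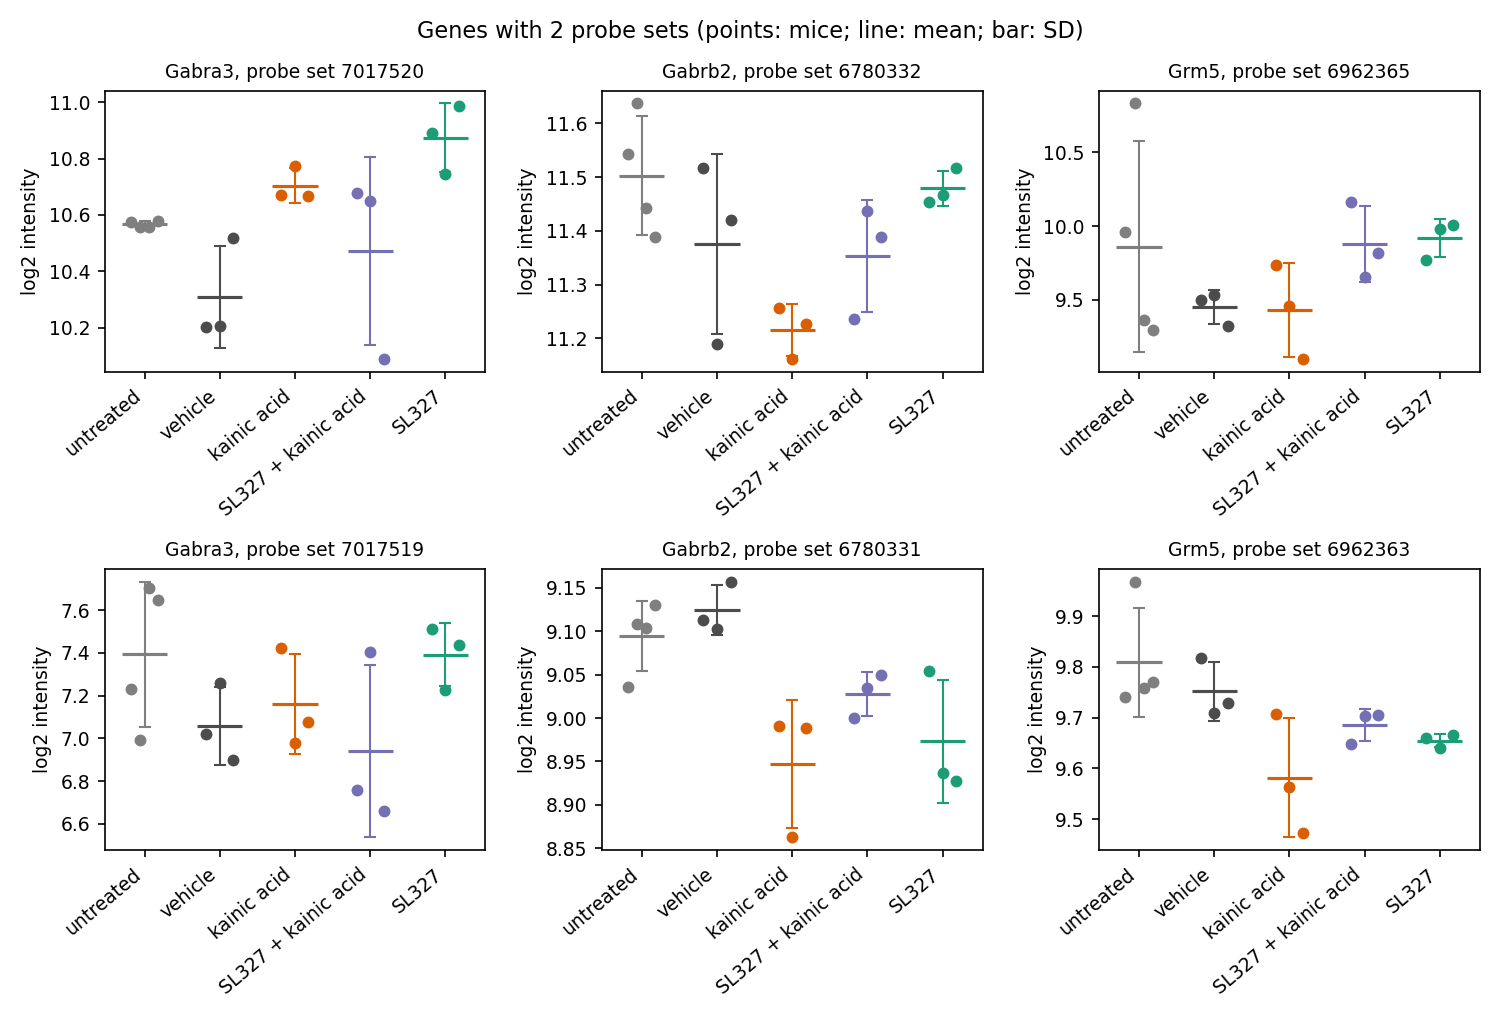
Log2 intensity per mouse of the 3 receptor genes with 2 probe sets each (Gabra3, Gabrb2 and Grm5), the probe set with the higher mean in the upper row, by group, with points for mice, lines for means and bars for the SD. The vehicle arrays of Gabra3 on 7017520 lie below all untreated arrays, and Grm5 on 6962365 ranges over 1.73 while 6962363 ranges over 0.49.

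The other alpha subunits did not pass after kainic acid. Gabra5 (6967593), an alpha subunit of extrasynaptic receptors that is abundant in the hippocampus, was at 10.75, 10.57 and 10.45 after vehicle and at 10.53, 10.64 and 10.35 after kainic acid. Its change was -0.08 (95% interval -0.32 to 0.16, limma's adjusted p = 0.672). Gabra4 and Gabra2 changed by 0.07 (95% interval -0.09 to 0.24) and -0.03 (95% interval -0.20 to 0.13), and the arrays of all 3 genes overlapped those of vehicle.

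The beta subunits, which hold part of the GABA binding site, had lower values after kainic acid. Gabrb1 (6931514) was at 11.07, 10.84 and 10.93 in the vehicle arrays and at 10.59, 10.64 and 10.63 in the kainic acid arrays. It was at 10.98, 11.30, 10.84 and 10.75 in untreated mice, so all kainic acid arrays lay below all controls. The difference of -0.33 from vehicle (SE 0.11, 95% interval -0.57 to -0.09) fell just short of the threshold (limma's adjusted p = 0.0513), and it was -0.35 against untreated mice (adjusted p = 0.0205). Gabrb2 was measured on 2 bright probe sets. On 6780332, with the higher mean, it was at 11.52, 11.19 and 11.42 after vehicle and at 11.26, 11.16 and 11.23 after kainic acid, which overlap (-0.16, adjusted p = 0.187). On 6780331 it was at 9.11, 9.10 and 9.16 after vehicle and at 8.99, 8.86 and 8.99 after kainic acid, without overlap, and fell by 0.18 (SE 0.05, adjusted p = 0.0191). After SL327 alone 6780331 was at 9.05, 8.94 and 8.93, also below all vehicle arrays. The SL327 arrays of 6780332, at 11.45, 11.47 and 11.52, overlapped those of vehicle. The 2 probe sets correlated at r = 0.35 over the 16 arrays. The gamma subunit gene Gabrg3 (6967584) was at 7.75, 7.77 and 7.93 after vehicle and at 7.89, 7.77 and 7.67 after kainic acid (-0.04, 95% interval -0.22 to 0.14), and the rho subunit gene Gabrr2, best known from the retina, was not tested, at 6.59 to 6.65 after vehicle and 6.64 to 6.67 after kainic acid. Gabra2, Gabra4 and Gabrb1 lie in 1 cluster on chromosome 5 of GRCm38.p6, and their changes after kainic acid were -0.03, 0.07 and -0.33.

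Of the AMPA subunits 3 had lower values after kainic acid, and 0 passed against vehicle. Gria2 (6906261), the subunit that makes AMPA receptors impermeable to calcium, was at 11.17, 11.07 and 11.02 after vehicle and at 11.00, 10.85 and 10.90 after kainic acid. It was at 11.02, 11.32, 11.10 and 11.03 in untreated mice, so the kainic acid arrays lay below all 7 controls. The arrays of SL327 alone, at 10.97, 11.00 and 10.94, also lay below all 7 controls. The difference between kainic acid and vehicle was -0.17 (SE 0.08, 95% interval -0.33 to -0.01, limma's adjusted p = 0.127). Gria3 (7010835), a subunit that pairs with Gria2, was at 9.42, 9.31 and 9.32 after vehicle and at 9.24, 9.07 and 9.08 after kainic acid, without overlap (-0.22, SE 0.11, adjusted p = 0.182). In untreated mice it was at 9.41, 9.94, 9.40 and 9.43, with replicate 2 far above the rest. Gria1, the subunit best known for its recruitment in synaptic plasticity, had a difference of -0.20 with overlapping arrays (95% interval -0.43 to 0.02), and Gria4, which interneurons express, had 0.02 (95% interval -0.26 to 0.29).

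The outcome for several glutamate and beta subunits depended on the controls used. With untreated mice as the control 5 of the 19 members (26.3%) were lower after kainic acid and 0 were higher, while 32.8% of all tested probe sets passed. They were Gria3 (-0.41, adjusted p = 0.00810), Gabrb2 (-0.29, adjusted p = 0.0114), Gabrb1, Gria2 (-0.20, adjusted p = 0.0400) and Grm2 (-0.22, adjusted p = 0.0440). The same 5 were lower, and Gabra3 did not pass, when untreated and vehicle mice were pooled, where 33.0% of all tested probe sets passed. Without untreated replicate 2, which leaves each difference from vehicle as it is but narrows the shared estimate of the spread, 4 members passed against vehicle, beside 25.1% of all tested probe sets. These were Gabra3 and the lower Gabrb1 (adjusted p = 0.00754), Gria3 (adjusted p = 0.00844) and Gria2 (adjusted p = 0.0419). Choroid plexus markers were high in untreated replicate 2, with a median over 7 genes of 2.04 above the vehicle mean against -0.28 to 1.25 in the other untreated mice and -0.23 to 0.41 in vehicle mice, and their part in the spread of these genes was not tested.

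**Figure D3:**
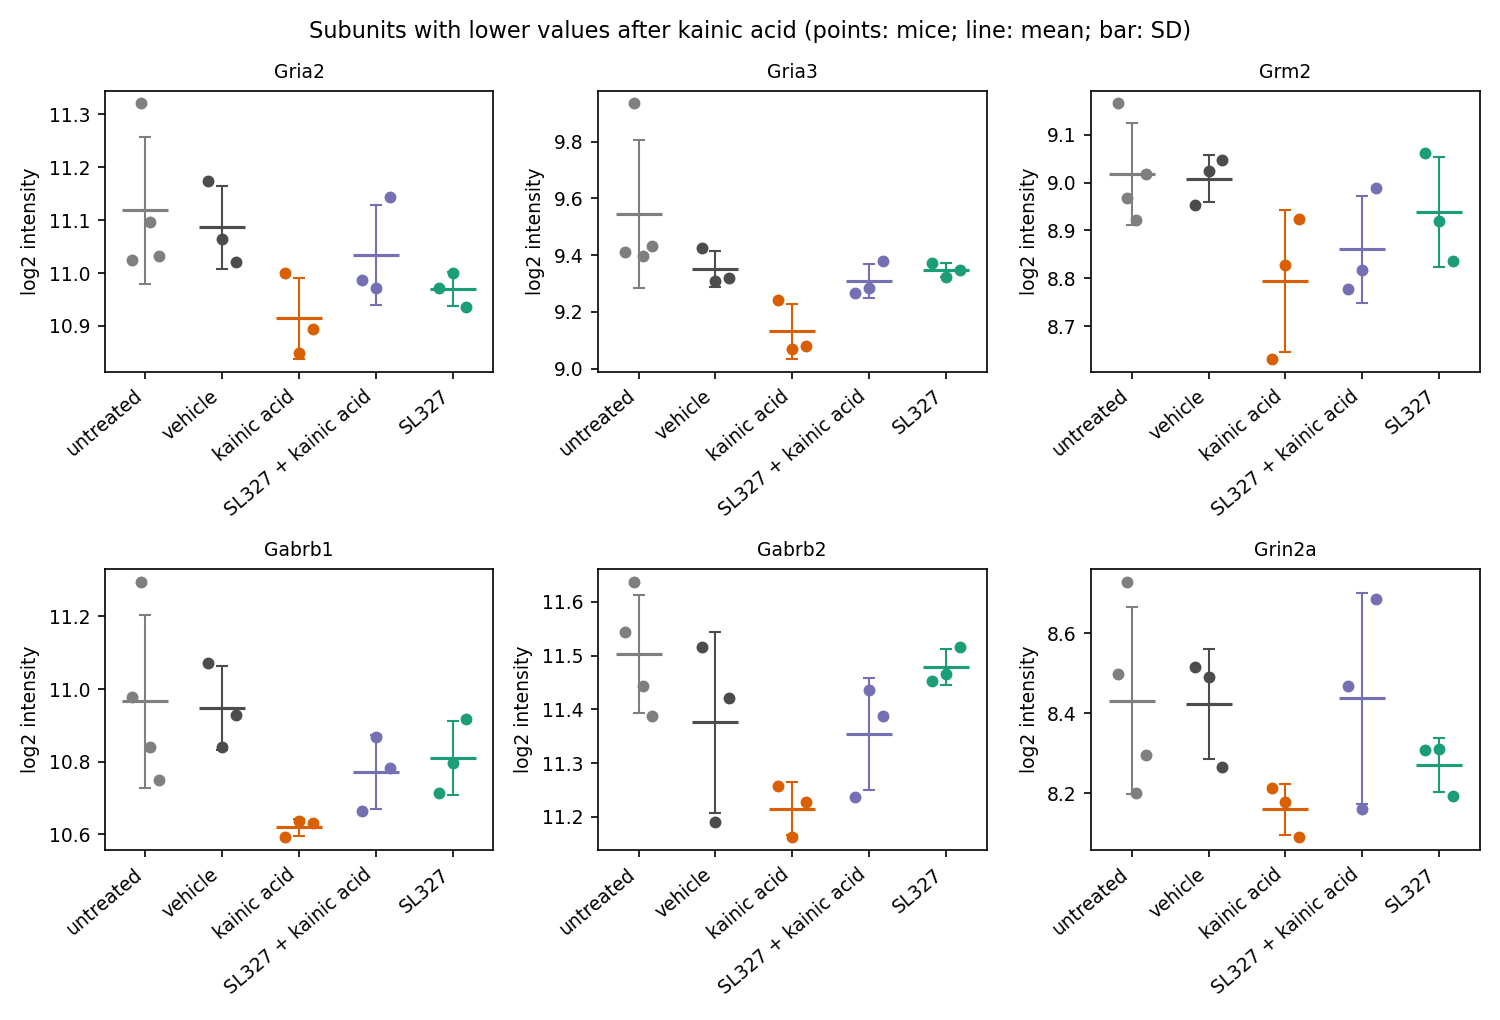
Log2 intensity per mouse of Gria2, Gria3, Grm2, Gabrb1, Gabrb2 (6780332) and Grin2a by group, with points for mice, lines for means and bars for the SD, each panel on its own scale that does not start at 0. The kainic acid arrays lie below all untreated and vehicle arrays for Gria2, Gria3 and Gabrb1, and for Gria2 the arrays of SL327 alone do so too. For Gria3 untreated replicate 2 stands alone at 9.94.

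NMDA receptor subunits other than the obligatory Grin1 were measured on 5 probe sets, and none passed. Grin2b (6957715), the subunit that prevails early in development, was at 8.43, 8.50 and 8.30 after vehicle and at 8.29, 8.31 and 8.26 after kainic acid (-0.12, SE 0.08, limma's adjusted p = 0.293). Grin2a (6843861), which gives receptors with faster currents, was at 8.52, 8.49 and 8.26 after vehicle and at 8.21, 8.18 and 8.09 after kainic acid. These arrays did not overlap, but the difference of -0.26 did not pass (SE 0.13, adjusted p = 0.184), and the untreated mice spread from 8.20 to 8.73. Grin2c and Grin2d differed by -0.07 and 0.05, each with a 95% interval reaching no further than 0.16 from 0. Grin3b was not tested, at 6.63, 6.63 and 6.66 after vehicle and at 6.57, 6.70 and 6.70 after kainic acid. Grid1 (6818249), a delta receptor that acts as a synaptic organizer, was not tested either and was at 7.15 to 7.22 after vehicle and 7.08 to 7.15 after kainic acid.

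Metabotropic glutamate receptors showed no change that passed the test. Grm5, the group I receptor coupled to calcium release, varied more on probe set 6962365 than any other tested member. There it was at 9.96, 10.83, 9.36 and 9.29 in untreated mice, at 9.50, 9.53 and 9.32 after vehicle and at 9.73, 9.46 and 9.10 after kainic acid. The residual SD was 0.42, against 0.03 to 0.42 over the members with a median of 0.11, and the 95% interval of the kainic acid change reached from -0.67 to 0.63. The other probe set, 6962363, has nearly the same mean (9.70 against 9.72) and was steadier, with 9.82, 9.71 and 9.73 after vehicle and 9.71, 9.56 and 9.47 after kainic acid (-0.17, SE 0.07, limma's adjusted p = 0.0832). Grm2 (6998593), a group II autoreceptor that limits glutamate release, was at 8.95, 9.02 and 9.05 after vehicle and at 8.63, 8.83 and 8.92 after kainic acid, without overlap (-0.21, SE 0.09, adjusted p = 0.0928). Grm3 of group II and Grm4, Grm6 and Grm7 of group III were not tested, and in the fit without the filter their differences were 0.04, 0.12, 0.05 and -0.07. Grm7, the brightest of group III, was at 7.41, 7.54 and 7.40 after vehicle and at 7.39, 7.42 and 7.34 after kainic acid.

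The GABA-B subunits had the narrowest intervals among the tested inhibitory receptor genes. Gabbr1 (6850271), which binds GABA, was at 10.24, 10.13 and 10.14 after vehicle and at 10.23, 10.12 and 10.11 after kainic acid, a difference of -0.02 with a 95% interval of -0.13 to 0.09. Gabbr2 (6921387), which couples the dimer to its G protein, was at 8.39, 8.41 and 8.35 after vehicle and at 8.33, 8.35 and 8.26 after kainic acid (-0.07, 95% interval -0.16 to 0.01). The glycine receptor gene Glra2 was not tested, and it was at 6.88 ± 0.21 (SD, n = 3) after vehicle and at 7.18 ± 0.16 (SD, n = 3) after kainic acid, with arrays that overlap. Outside the rule, Gabrd, a subunit of extrasynaptic GABA-A receptors in granule cells, differed by -0.07 (adjusted p = 0.549), and Glrb, the beta subunit of glycine receptors, by -0.05 (adjusted p = 0.649).

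SL327 alone gave 1 higher and 0 lower members of 19 against vehicle at limma's adjusted p of 0.05, while 6.31% of all tested probe sets passed. The member was again Gabra3, and the comparison shares the vehicle arrays with that of kainic acid. Gabra3 was 1.48-fold higher after SL327 (0.56 on the log2 scale, SE 0.13, 95% interval 0.29 to 0.84, adjusted p = 0.0211). The mean of both its probe sets gave 0.45 (adjusted p = 0.0530) and the other probe set alone 0.33 (adjusted p = 0.371), and neither passed. Against untreated mice the difference was 0.31 and did not pass (adjusted p = 0.146). The call against vehicle was lost without vehicle replicate 1 or 2 or SL327 replicate 1 or 3 (0.51 to 0.67 over the 16 fits, adjusted p 0.00444 to 0.0909). Of the 19 changes 14 were below 0, with a median of -0.04, while the median over all tested probe sets was 0.04. The arrays did not overlap for 5 members, against 34.5% of all tested probe sets. At an unadjusted p under 0.05 were 2 members and 1909 probe sets.

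Gabra2, an alpha subunit of many forebrain synapses, was the lowest of these changes. It was at 8.97, 8.93 and 8.75 after vehicle and at 8.64, 8.62 and 8.63 after SL327, and at 8.69, 8.72 and 8.61 after SL327 with kainic acid. All 6 arrays with the inhibitor lay below all untreated, vehicle and kainic acid arrays. The difference between SL327 and vehicle of -0.25 (SE 0.08) did not pass (adjusted p = 0.0693), and it passed after centring (-0.28, adjusted p = 0.0455), after quantile normalization (-0.29, adjusted p = 0.0296) and against untreated mice (-0.30, adjusted p = 0.0304). Grm5 on 6962365 was at 9.77, 9.98 and 10.01 after SL327, above all vehicle arrays (0.47, 95% interval -0.18 to 1.11, adjusted p = 0.390), while on 6962363 it was at 9.66, 9.64 and 9.66 and below them (-0.10, adjusted p = 0.412). The choroid plexus markers had medians of 0.23 to 1.06 in the SL327 arrays against -0.23 to 0.41 after vehicle, with a summed linear level of 3965 to 6570 against 1227 to 4353. In untreated replicates 1 to 4 the choroid plexus medians were 1.25, 2.04, 0.31 and -0.28. Gabra3 ran from 10.56 to 10.58 in these mice, and Grm5 on 6962365 was at 9.96, 10.83, 9.36 and 9.29. The part of these markers in the results for Gabra3 and Grm5 was not tested.

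**Figure D4:**
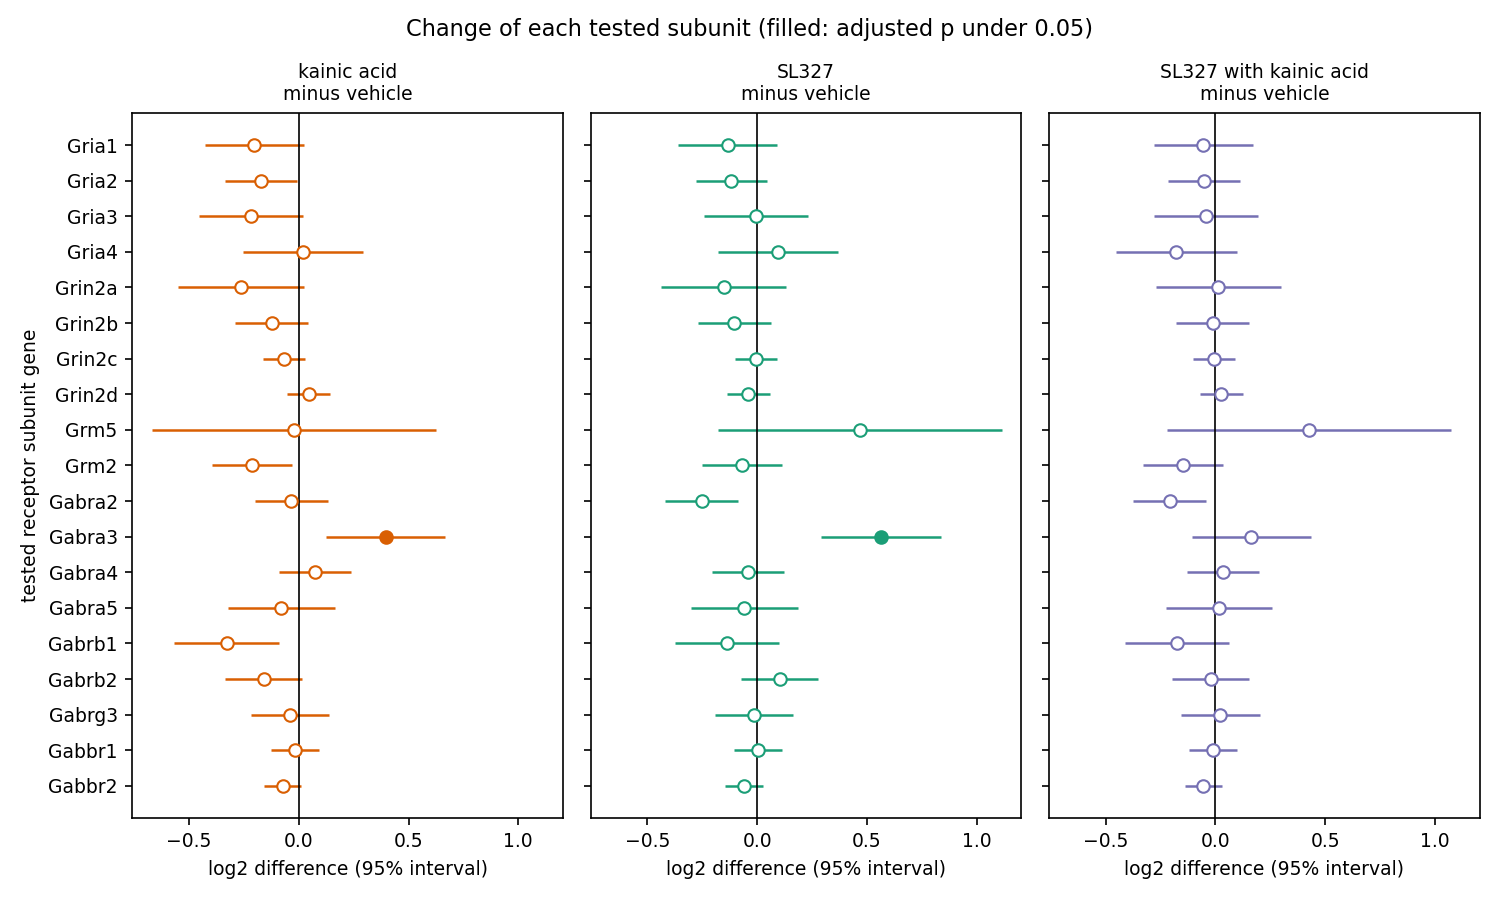
Difference from vehicle on the log2 scale with its 95% interval for the 19 tested receptor subunit genes after kainic acid (left), SL327 (middle) and SL327 with kainic acid (right), where filled points have an adjusted p under 0.05 in limma. Gabra3 is the filled point at 0.40 after kainic acid and at 0.56 after SL327, and no point is filled after the combined treatment.

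With SL327 and kainic acid together, 0 of 19 members differed from vehicle, where 0.869% of all tested probe sets passed, and 0 differed from kainic acid alone, where 18.9% passed. At an unadjusted p under 0.05 limma gave 1 member in either comparison, out of 1163 and 2885 probe sets. The median over members was -0.01 against vehicle and 0.07 against kainic acid alone, and over all tested probe sets it was 0.01 and 0.06. Gabrb1, at 10.66, 10.87 and 10.78, lay above the kainic acid arrays and partly below the vehicle arrays (0.15 against kainic acid alone, 95% interval -0.08 to 0.39). Grin2a, at 8.47, 8.16 and 8.68, differed between its replicates more than between the groups. Replicate 2 of the combined treatment stood apart in the seizure genes, whose median over 6 genes was 0.23 above the vehicle mean against 1.06 in both other replicates. Their summed linear level there was 2322 against 7813 and 8499, and it was 2291 to 2502 after vehicle. Without this array Grin2a was higher than with kainic acid alone (0.42, adjusted p = 0.0465), as the 1 member that passed beside 14.5% of all tested probe sets. Against SL327 alone 0 members passed, as did 0 (0%) of all probe sets, with 1 member and 897 probe sets at an unadjusted p under 0.05. Between vehicle and untreated mice the counts were likewise 0 and 0 (0%), with 1 member, Gabra3, and 569 probe sets at an unadjusted p under 0.05.

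The test of whether the inhibitor altered the change with kainic acid (the change in its presence minus the change in its absence) passed for 1 member, Gabra3, and for 5.76% of all tested probe sets (3 members and 1875 probe sets at an unadjusted p under 0.05). For Gabra3 this difference between responses was -0.80 (SE 0.18, 95% interval -1.18 to -0.41, limma's adjusted p = 0.0192), with a response of 0.40 without the inhibitor and of -0.40 in its presence. It was lost without vehicle replicate 1 or 2, kainic acid replicate 2 or SL327 replicate 3 (-0.90 to -0.60 over the 16 fits), and it was -0.60 when the combined treatment's array at 10.09, replicate 3, was left out. In that array the granule cell marker median was 0.26 against -0.17 and -0.23 in replicates 1 and 2, and their summed linear level was 4630 against 3585 and 3335. Its interneuron marker median was -0.08 against 0.02 and 0.08, and its CA1 pyramidal cell marker median (3 genes) -0.10 against 0.08 and 0.11. The part of these cell types in the result was not tested. With untreated mice in place of vehicle it was -0.54 (adjusted p = 0.0697). For the other members it was above 0 in 15 and below 0 in 3, with 0.43 for Grin2a (adjusted p = 0.201) and 0.24 for Gria2 (adjusted p = 0.214) at an unadjusted p under 0.05.

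Genes that act together with these subunits were compared in the same fit. Of 4 tested kainate receptor subunits 0 were higher and 1 was lower after kainic acid. This was Grik2, the main kainate receptor subunit of mossy fibre synapses, with a fall of 0.20 (SE 0.06, limma's adjusted p = 0.0195), and it was higher by 0.23 with the inhibitor than with kainic acid alone (adjusted p = 0.0127). Of 17 tested auxiliary subunits 1 was higher and 0 were lower, namely Kctd12, an auxiliary subunit of GABA-B receptors, with 0.37 (SE 0.08, adjusted p = 0.00787), and it was lower by 0.32 when SL327 was given too (adjusted p = 0.0185). After SL327 alone the AMPA receptor auxiliary subunit Cacng3 was the 1 higher of 17 (0.37, adjusted p = 0.0485), which is 5.88% beside 6.31% of all tested probe sets. Its vehicle arrays were lower than the untreated ones on average (-0.18), without passing (adjusted p = 0.735). Of 21 tested scaffold and trafficking genes 4 were higher and 1 was lower after kainic acid. Homer1, a scaffold of group I metabotropic receptors, rose by 1.61, and Nptx2, a secreted protein that clusters AMPA receptors, rose by 2.38 (adjusted p = 1.19e-08 and 8.54e-08). Nlgn2, an adhesion protein of inhibitory synapses, and Trak1, an adaptor that transports mitochondria, rose by 0.26 and 0.20, and Homer2 fell by 0.19. Vehicle minus untreated was -0.20 for Nlgn2, -0.01 for Trak1 and 0.07 for Homer2, and none of these passed. With the inhibitor, 2 of the 21 were lower than with kainic acid alone, Homer1 by -1.63 and Nptx2 by -2.16, which is 9.52% beside 18.9% of all tested probe sets. The share of the 21 that passed after kainic acid, 23.8%, and that of the 19 receptor subunits, 5.26%, stand beside the 19.6% of all tested probe sets.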

How the data were processed

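The authors hybridized hippocampal RNA to Affymetrix Mouse Exon 1.0 ST arrays and normalized it by RMA in the oligo package, whose versions are not given in the sources used here, and they deposited log2 intensities, which were used unchanged. The number of arrays limits the precision. Symbols come from the platform annotation (14704 probe sets with 1 gene, 713 with several, 4955 with none), and all 27 member symbols matched the RefSeq gene table, 20 of them also its table of upstream sequences. Names starting with Glrx or Glrp were left out.

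Probe sets with a gene name were tested where at least 3 arrays exceeded their median over such probe sets, 8520 in all, with limma 3.58.1 in R 4.3.3 as means of the 5 groups with empirical Bayes moderation. Contrasts were two-sided, with p adjusted by Benjamini and Hochberg over all 8520 and a threshold of 0.05. The probe set with the highest mean over the 16 arrays stands for a gene. The fit was tested on simulated data, with changes larger than that of any tested member after kainic acid. This test does not show how well smaller changes are found.

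Groups follow the sample labels. The members and the lists were chosen with earlier results of these data known. By rule the text gives each array for members that passed and for the member of each family with the highest mean. For Grid1, Gabrr2 and Glra2, which were not tested, it gives a range or a mean with its SD instead. Gabbr2 and Grin3b are also given by array, outside this rule. Gabrb1, Grin2a, Gria3 and Gabra2 were added after their values were seen. Nothing in the labels ties the replicate numbers of different groups, so samples were not paired. Alternatives were no filter or a stricter one, unnamed probe sets, centring, quantile normalization, fewer groups, a replicate block, other controls, the mean of a gene's probe sets and each array left out. A median over all probe sets and the other probe set of a gene were added after seeing the data.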

Additional observations from a re-analysis of the deposited data

Results flagged for a closer look

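In untreated mice, an array lay far from the other 3 for 3 of the 27 members checked, where chance would give about 1 in 20 for a single gene. Members share the same 4 arrays, so these gaps are not independent, and the share over all probe sets was not computed. The count is therefore not a result about receptor subunits. Untreated replicate 2 also had the lowest mean correlation with its own group among the 16 arrays (r = 0.956). Gria3 was at 9.94 in replicate 2 and 9.43 in the nearest other mouse, a gap of 0.937 of the whole range. Gabra5 was at 11.00 in the same replicate and 10.59 in the nearest, a gap of 0.886 of the range. Gria4 was at 8.28 in replicate 4 and 8.09 in the nearest, a gap of 0.832 of the range. The response of Gabra3 to kainic acid differed by -0.80 with SL327 from that without it, by limma's test of the difference itself (adjusted p = 0.0192), and 2 of the 3 mice given both treatments were at 10.65 or above while replicate 3 was at 10.09.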

How the results depend on the processing

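In 3743 values of single members recomputed over 29 settings, 0 reversed among called values, 30 lost the threshold (all of Gabra3) and 30 gained it, while 169 values that passed in neither setting changed sign. The 1 member called after kainic acid became 4 (21.1%) at an unadjusted p, where 33.6% of all tested probe sets passed. It became 2 (10.5%) with a filter in all 16 arrays or with only the groups compared, where 19.1% and 18.3% passed. It became 0 without a filter or with unnamed probe sets fitted, where 13.3% and 16.8% passed. It became 5, all lower, with untreated or pooled controls, where 32.8% and 33.0% of all tested probe sets passed, and 2, both lower, with the mean of a gene's probe sets, where 20.2% of genes passed. It stayed at 1 but became Gabrb1, lower, under quantile normalization and Gabrb2, lower, with the other probe set of Gabra3, Gabrb2 and Grm5. The 1 member called after SL327 became 2 (10.5%) at an unadjusted p, where 22.4% of all tested probe sets passed. It was also 2 with centring (beside 5.4%), quantile normalization (4.96%), only the groups compared (8.59%) or pooled controls (8.66%). It became 0 with the mean of probe sets, where 6.73% of genes passed, or with the other probe sets. With untreated controls the 1 called was Gabra2, lower, in place of Gabra3, beside 5.18% of all tested probe sets. The 1 called for the difference between responses became 3 (15.8%) at an unadjusted p, where 22% of all tested probe sets passed. It became 0 with untreated controls, where 8.04% passed, or with the other probe sets. The 4 remaining comparisons had 0 called and 1 each at an unadjusted p.

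Leaving out each array gave 0 to 4 members for kainic acid, 0 to 2 for SL327, 0 to 1 for the inhibitor with kainic acid against kainic acid alone, 0 to 1 for the difference between responses, and 0 to 0 for the other comparisons. The 4 for kainic acid came without untreated replicate 2, where 25.1% of all tested probe sets passed. The 1 of the inhibitor with kainic acid was Gria3, higher without untreated replicate 2, or Grin2a, higher without replicate 2 of SL327 with kainic acid. Gabra3 for kainic acid was replaced by the lower Gabrb2 without vehicle replicate 2 and by the lower Gabrb1 without untreated replicate 4.

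Samples with the same replicate number deviated together no more than others (30 pairs, r -0.22 to 0.18, median -0.03, 5 over 0.1). Pairs with different numbers ran from -0.20 to 0.27 (72 pairs, median 0.01, 15 over 0.1). The check uses deviations within small groups, so it cannot exclude a batch shared by arrays of the same number. A replicate block gave 0 members for kainic acid, beside 16.6% of all tested probe sets, and 2 (10.5%) for SL327, beside 4.78%. It gave 0 for the difference between responses, beside 3.94%, and 0 in the other 4 comparisons, beside 0% to 15.3%. With this block Gabra3 had limma's adjusted p of 0.0808 for kainic acid and 0.0527 for the difference between responses. With 3 mice in most groups, changes below about 0.2 could not be told from 0 for most members. Larger changes from vehicle also failed the adjusted threshold, such as -0.33 for Gabrb1 and -0.26 for Grin2a after kainic acid. After SL327 a change of 0.47 for Grm5 failed it too. Gabra3 passed with 0.40 after kainic acid and 0.56 after SL327. A member that did not pass can therefore have changed by more than 0.2.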
